A study of Capra hircus with 4 samples.

Results

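Axon guidance genes were followed in cultures of stem cells from the secondary hair follicles of the cashmere goat (Capra hircus). Secondary follicles grow the fine cashmere undercoat. The set holds every gene whose symbol in the deposited tables marks it as a semaphorin of classes 3 to 7, plexin, neuropilin, ephrin, EPH receptor, Slit, ROBO receptor, netrin or UNC5 receptor, together with PLXDC1 and PLXDC2. In all, 71 of 20326 genes matched, of which 35 were ligands and 32 receptors. PLXDC1 and PLXDC2 encode transmembrane proteins with a plexin-like domain and were kept apart. So were UNC50 and UNC5CL, which the symbol pattern for UNC5 also takes although neither is a netrin receptor. Plexin-B2 is listed without a symbol, as LOC108633277, and is therefore no member.

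The cells were isolated from dorsal skin and cultured at early anagen, sampled in April, and at mid anagen, sampled in October. Anagen is the growth phase of the hair cycle. Each phase has 1 female and 1 male library, named here early female, early male, mid female and mid male, and the labels give no genotype, treatment or age. The labels call them biological replicates but do not say how many animals each holds, so p-values measure the spread between these libraries. Within a phase that spread is between 1 female and 1 male library, so it includes any difference between the sexes. The phase and the month of sampling cannot be told apart.

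Guidance molecules were first studied as signals that attract or repel growing axons, and they also act between epithelial, vascular and immune cells. Secreted class 3 semaphorins bind neuropilins, which signal through plexins, while membrane-bound semaphorins mostly bind plexins directly. Ephrins are held on the cell surface, ephrin-A by a lipid anchor and ephrin-B by a membrane-spanning segment. They bind EPH receptor tyrosine kinases on neighbouring cells, and in skin this contact signalling takes part in keratinocyte adhesion, differentiation and cell positioning. Slits bind ROBO receptors, and netrins bind UNC5 receptors, DCC and neogenin.

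Deposited values are abundances per gene, and the number of reads behind them is unknown. Library totals were 1068430 (female) and 1186970 (male) early against 933211 (female) and 844960 (male) mid, so both mid totals were the lower ones. Where values are given as pairs, the female library comes before the male one. All 7 basal keratinocyte markers were at or above 1 in every library, and their sum was 38033 and 43307 early against 18495 and 19892 mid. KRT14 and KRT5 made up most of this sum. KRT14 was at 20587 and 23511 early against 9603 and 8956 mid (limma adjusted p = 0.155). KRT5 was at 15892 and 18092 early against 7281 and 9234 mid (limma adjusted p = 0.193). ITGB4 was also lower in both mid libraries, ITGA6 and TP63 overlapped, and CDH1 and EPCAM had both mid libraries above both early ones. Of 7 bulge stem cell markers found, 5 or 6 were at or above 1 in each library, and CD34 was under 1 in all. Their sum, most of it SOX9, was 122 and 95.4 early against 216 and 242 mid. All 7 had both mid libraries above both early ones, as had 30.0% of the genes above 0 in any library. CD34 is among them, at 0 early against 0.136 and 0.0136 mid. LHX2 was called (9.54 and 6.94 early against 31.7 and 32.1 mid, limma adjusted p = 0.0431). KRT15 was not found by its symbol. Fibroblast and dermal papilla markers, 15 in all, summed to 40.6 and 26.2 early and to 214 and 86.1 mid in the female and male libraries, with 1 and 1 members at or above 1 early and 11 and 10 mid. Most of the early sum was THY1, which overlapped, at 39.4 and 23.0 early against 16.4 and 28.8 mid. CORIN overlapped too. The other 13 of the 15 had both mid libraries above both early ones, against 30.0% of the genes above 0 in any library. COL1A1 was at 0.179 and 0.987 early against 58.6 and 19.8 mid. DCN, FAP and PDGFRA were between 0 and 0.0907 in both early libraries. Of these markers FBN1 was called, at 0.125 and 0.133 early against 8.48 and 5.86 mid (limma adjusted p = 0.0323). Of 10 endothelial markers 8 were under 1 everywhere, and CDH5 was listed at 0. The exceptions were EGFL7 and ERG. Both mid libraries lay above both early ones for 5 of the 10, namely EGFL7, ERG, KDR, TEK and VWF. Of the genes above 0 in any library, 30.0% had this pattern.

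Differences between phases were tested with limma on log2(value + 1). The test covered the 12486 genes that reached 1 in 2 or more libraries, with Benjamini-Hochberg adjustment over all of them. Of the 71 members 42 met this filter, namely 23 of 35 ligands, 16 of 32 receptors, PLXDC2, UNC50 and UNC5CL, and 29 did not. Comparisons of levels between genes take the deposited abundances as being per transcript length, as kallisto's are, which no source used here states.

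The Eph receptors EPHA1, EPHA2 and EPHB4 were the most abundant members. EPHA1, an Eph receptor found in epidermis, was at 135 and 93.5 early against 121 and 113 mid. EPHA2, a main Eph receptor of keratinocytes, was at 113 and 108 early against 110 and 128 mid. EPHB4, the receptor for ephrin-B2, was at 88.2 and 74.5 early against 101 and 115 mid. The means of EPHA1 and EPHA2, 116 and 115, did not differ beyond their spread, and the phases overlapped for both. EPHB4 had both mid libraries above both early libraries, without passing the test (log2 fold change 0.41, SE 0.17, limma adjusted p = 0.193).

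**Figure D1:**
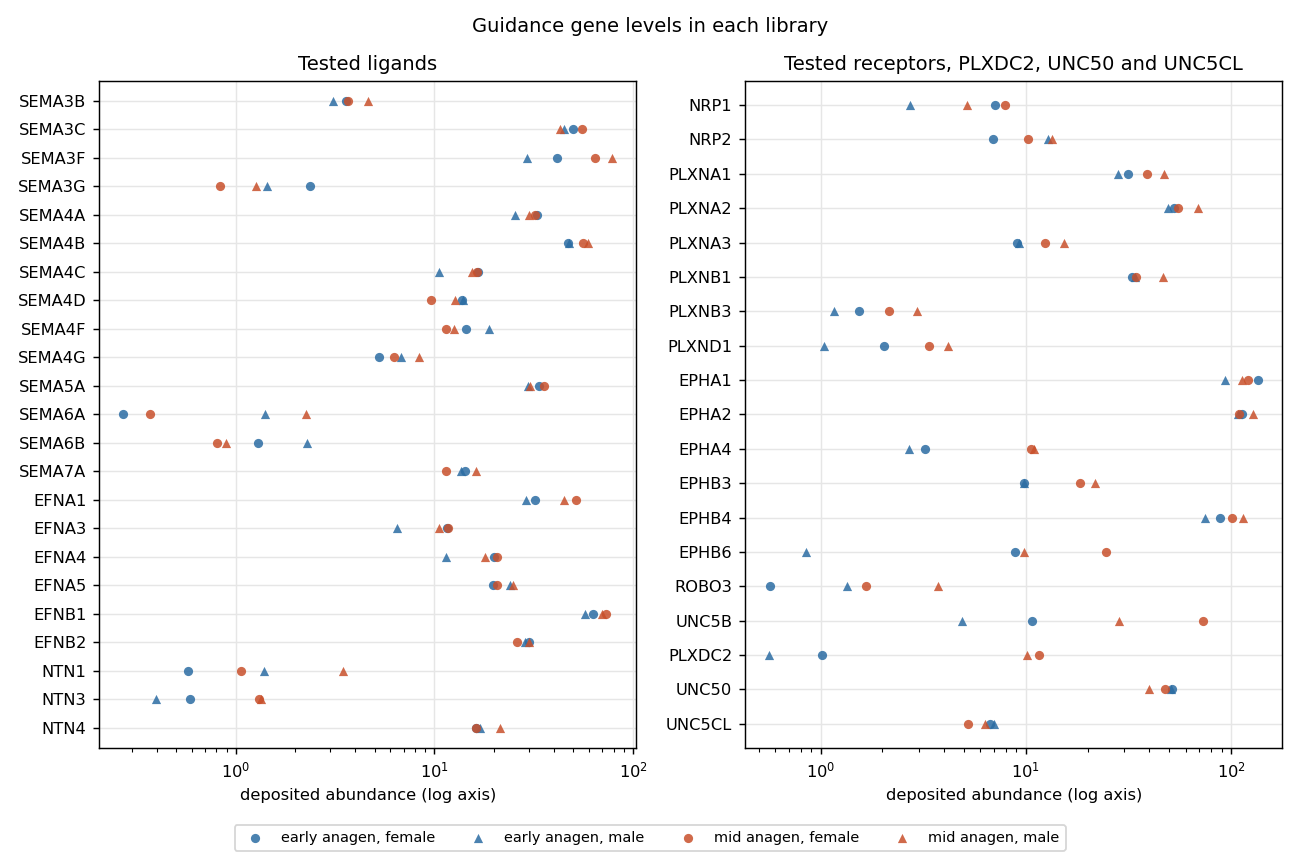
Deposited abundance of the 42 tested genes in each library, on log axes, with ligands on the left and receptors and the other 3 genes on the right. Blue marks early and orange mid anagen, circles female and triangles male. EPHA1, EPHA2 and EPHB4 lie at the right, from 74.5 to 135, and the phases are clearly separated for EPHA4, EPHB3 and PLXDC2.

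Of the tested members, 2 of 42 were called, both higher at mid anagen, the receptor EPHA4 and PLXDC2. Over all tested genes 0.304% were called in either direction and 0.224% were called higher. The other 40 members did not pass. An unadjusted p under 0.05 was found for 11 of 42 (26.2%), near the 27.9% of all tested genes, and all 11 were higher at mid anagen, as were 13.2% of all tested genes. The 11 include NTN3, for which only the mid libraries met the filter. As these are bulk libraries of cultured cells, a change in the share of cells expressing a gene and a change in RNA per cell cannot be told apart.

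EPHA4 (GeneID 102183467) is an Eph receptor that binds both ephrin-A and ephrin-B ligands. Its early values were 3.22 (female) and 2.70 (male), and its mid values 10.6 (female) and 11.0 (male). The phases did not overlap, and the libraries within each phase differed little. The ratio of the phase means was 3.65, and the log2 fold change was 1.58 (SE 0.16, 95% interval 1.17 to 1.98, limma adjusted p = 0.0431, n = 2 per phase). The call ended with a pseudocount of 0.1 (adjusted p = 0.0573), with no filter (0.105), with no intensity trend (0.0521), with the trend on gene span removed (0.0635) and without the early female (0.0794) or early male library (0.266), while the log2 fold change lay between 0.99 and 1.86 under every alternative run.

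PLXDC2 (GeneID 102188059), a transmembrane protein with a plexin-like extracellular domain, had the largest log2 fold change among the tested members. Early values were 1.01 (female) and 0.562 (male), and mid values 11.6 (female) and 10.1 (male). The mid library exceeded the early one by 2.64 in the females and 2.83 in the males on the log2(value + 1) scale. The ratio of the phase means was 13.7, and the log2 fold change was 2.73 (SE 0.21, 95% interval 2.22 to 3.25, limma adjusted p = 0.0323). The call ended with no filter (adjusted p = 0.105) and without the early female (log2 fold change 2.92, adjusted p = 0.0657) or early male library (2.55, adjusted p = 0.197). The log2 fold change was 1.45 with a pseudocount of 5 and 3.67 with one of 0.1, and the call held with both. Its relative PLXDC1 was at 0 in all libraries but the early male, where it was at 0.0139. PLXDC2 was nearly equal in the mid female and mid male libraries, whereas the fibroblast marker sum was 214 and 86.1 there. FBN1, the 1 fibroblast marker called, was at 0.125 and 0.133 early against 8.48 and 5.86 mid. The part of other cell types in the PLXDC2 values was not tested.

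EPHB3 and EPHB6 had both mid libraries above both early libraries, without passing the test. EPHB3 (GeneID 102180800), a receptor for ephrin-B ligands, was at 9.84 and 9.77 early against 18.4 and 21.8 mid. The early libraries were almost equal and both lay below both mid libraries (log2 fold change 0.96, SE 0.15, limma adjusted p = 0.0711). EPHB6, an Eph family member without kinase activity, was at 8.83 and 0.847 early against 24.7 and 9.81 mid. The female library was the higher one in each phase. Its log2 fold change was 1.97 (SE 0.83, limma adjusted p = 0.196), and it was 0.76 without the early male and 3.17 without the early female library. In all, both mid libraries lay above both early ones for 4 of 6 tested Eph receptors, a pattern that 31.5% of all tested genes had, and the phases overlapped for EPHA1 and EPHA2. The median log2 fold change of the 6 was 0.68. The remaining 8 Eph receptors were under 1 in every library, and EPHA6 was listed at 0 throughout. EPHA7, chosen with its values in view, was at 0.122 and 0.0168 early against 0.324 and 0.516 mid.

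The ephrins are the ligands of these receptors, and 6 of 8 were tested. EFNA1 (GeneID 102168502), a ligand of EPHA2, was at 32.2 and 28.8 early against 51.3 and 44.7 mid. Its log2 fold change was 0.63 (SE 0.16, limma adjusted p = 0.0877). Its phases did not overlap, and the difference was similar in the females (0.65) and the males (0.62). EFNB1, the most abundant ephrin, was at 62.5 and 57.3 early against 73.1 and 69.7 mid, again without overlap and without passing (adjusted p = 0.314). EFNB2, the ligand of EPHB4, was at 29.8 and 28.7 early against 25.9 and 30.0 mid. It overlapped between the phases, with a 95% interval of -0.44 to 0.30 for its log2 fold change. EFNA3, EFNA4 and EFNA5 overlapped as well. EFNA5 was at 19.6 and 23.9 early against 20.7 and 24.8 mid. In the early female, early male, mid female and mid male libraries, EFNA3 was at 11.6, 6.47, 11.7 and 10.6. EFNA4 was at 19.9, 11.5, 20.7 and 18.0 in the same order. The early male library was lowest for both, as it was for EFNA1 and EFNB1. Members outside the ephrins, among them EPHA1, EPHB4 and SEMA3F, had their lowest value there too. In the ARS1.2 assembly EFNA4, EFNA3 and EFNA1 are neighbours with 0 protein-coding genes between them. EFNA2 reached 1 only in the mid male library, at 1.40, and EFNB3 was under 1 in all.

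**Figure D2:**
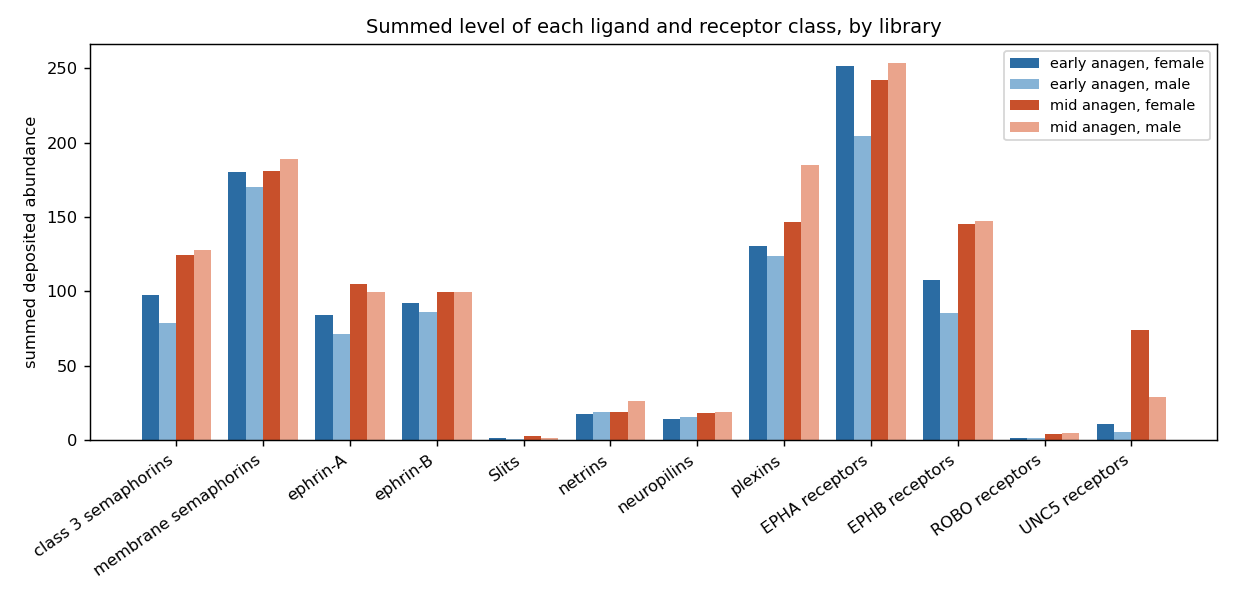
Summed deposited abundance of each ligand and receptor class in the 4 libraries, on a linear axis from 0. EPHA receptors have the largest sums, 204 to 254, and every class but the EPHA receptors and the netrins has both mid sums above both early sums.

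Secreted semaphorins were dominated by SEMA3F and SEMA3C. SEMA3F (GeneID 102174785), which signals mainly through neuropilin-2, was at 41.4 and 29.2 early against 63.9 and 78.3 mid. Both mid libraries lay above both early ones, with a log2 fold change of 1.00 (SE 0.22, 95% interval 0.45 to 1.55, limma adjusted p = 0.0832), larger in the males (1.39) than in the females (0.61). SEMA3C, a class 3 semaphorin that binds both neuropilins, was at 49.8 and 45.0 early against 55.3 and 42.9 mid, so the phases overlapped. SEMA3B, at 3.59 and 3.09 early against 3.68 and 4.63 mid, had a mid female value just above the early female one. SEMA3G went the other way, at 2.37 and 1.44 early against 0.831 and 1.27 mid, without passing (adjusted p = 0.268). SEMA3E, SEMA3A and SEMA3D lie next to each other in the ARS1.2 assembly, with 3 protein-coding genes between SEMA3C and SEMA3E. These genes were under 1 in every library, in contrast to SEMA3C.

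Of the 13 membrane semaphorins 10 were tested, and 0 of 10 passed, with 0 at an unadjusted p under 0.05 by limma. SEMA4B, the most abundant, was at 47.0 and 47.6 early against 56.1 and 59.2 mid (log2 fold change 0.28, SE 0.14, limma adjusted p = 0.253). SEMA5A, a semaphorin with thrombospondin repeats, was at 33.7 and 29.5 early against 35.7 and 30.1 mid. SEMA4A was at 32.9 and 25.4 early against 32.0 and 29.9 mid. For SEMA5A and SEMA4A the phases overlapped, as they did for SEMA4C, SEMA4G, SEMA6A and SEMA7A. The 95% interval of SEMA5A ran from -0.35 to 0.46 on the log2 scale.

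Both mid libraries lay below both early ones for 3 of 10 tested membrane semaphorins (30.0%, near the 30.9% of all tested genes). None of them passed the test. Among those whose direction the filter did not fix, this held for 2 of 9 (22.2%, against 31.0%). SEMA4F was at 14.4 and 18.9 early against 11.5 and 12.5 mid (log2 fold change -0.43, SE 0.18, limma adjusted p = 0.191), and its log2 fold change was -0.11 (adjusted p = 0.708) when each library was rescaled to a common total. SEMA4D, the ligand of plexin-B1, was at 13.8 and 13.9 early against 9.66 and 12.7 mid (-0.30, adjusted p = 0.314), and this difference became 0.020 with that rescaling. SEMA6B was at 1.29 and 2.29 early against 0.804 and 0.890 mid. It passed the filter only through the early libraries, which fixed its direction. For the secreted ligand NTN3 only the mid libraries met it. Among the other 21 tested ligands, both mid libraries lay below both early ones for 3, namely SEMA3G, SEMA4D and SEMA4F, and above them for 5 (23.8%). Over the 12205 tested genes whose direction the filter did not fix, 31.0% and 30.4% had these patterns. The median log2 fold change was 0.24 for the 23 ligands and 0.01 for all tested genes, and it was -0.031 for the ligands without the early male library.

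Among receptors the shares differed from those of all tested genes. Both mid libraries lay above both early libraries for 12 of 16 tested receptors (75.0%, against 31.5% of all tested genes) and below them for 0 of 16 (against 30.9%). The median log2 fold change was 0.53 for the receptors, 0.36 in the females and 0.72 in the males. Both mid library totals were below both early ones, so rescaling to a common total raised mid values relative to early ones. It shifted the all-gene median upward by 0.31, to 0.32, and the receptor median to 0.82. Then 6 rather than 2 members were called, the others being EFNA1, EPHB3, SEMA3F and UNC5B. Over all 12486 tested genes, 651 (568 higher) rather than 38 were called with that rescaling. These counts and medians are descriptions and were not tested against other genes. The bulge stem cell marker sum, most of it SOX9, and the fibroblast marker sum were also higher in both mid libraries. The basal keratinocyte marker sum, most of it KRT5 and KRT14, was lower. Of the other markers in that sum, ITGB4 was lower, CDH1 and EPCAM were higher, and ITGA6 and TP63 overlapped. The part of these cell types in the receptor values was not tested.

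**Figure D3:**
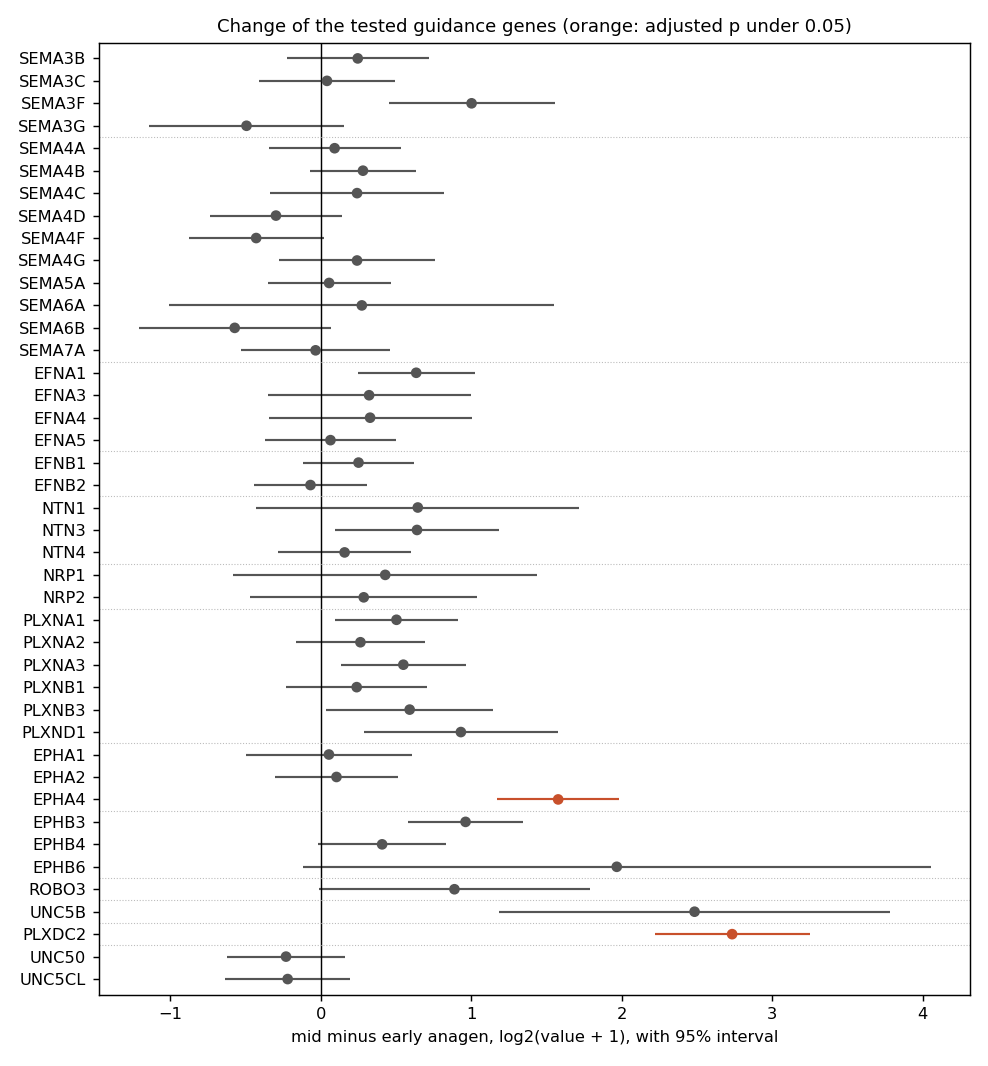
Log2 fold change of mid against early anagen for the 42 tested genes, with its 95% interval from limma, on the log2(value + 1) scale. Dotted lines separate the classes, and orange marks EPHA4 and PLXDC2, the 2 genes called. The points of the 16 receptors, from NRP1 to UNC5B, all lie above 0, as did 6371 of all 12486 tested genes. The intervals of NRP1, NRP2, PLXNA2, PLXNB1, EPHA1, EPHA2, EPHB4, EPHB6 and ROBO3 include 0.

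Plexins are the signalling receptors of semaphorins. All 6 tested plexins had both mid libraries above both early ones (against 31.5% of all tested genes), and 0 of 6 passed the test. An unadjusted p under 0.05 was found for 4 of 6, all higher, against 13.2% of all tested genes. PLXNA1, which pairs with neuropilins, was at 31.6 and 28.3 early against 39.0 and 46.9 mid (log2 fold change 0.50, SE 0.16, limma adjusted p = 0.132). PLXNA3, another partner of neuropilins, was at 9.02 and 9.21 early against 12.3 and 15.4 mid (0.55, SE 0.17, adjusted p = 0.117). PLXND1, the receptor of semaphorin 3E, was at 2.05 and 1.04 early against 3.38 and 4.16 mid (0.93, SE 0.26, adjusted p = 0.103). In these 3 genes the mid male library was the highest. PLXNA2, the most abundant plexin, was at 52.8 and 49.5 early against 55.1 and 68.7 mid. Its excess at mid anagen came mostly from the mid male library, and its log2 fold change of 0.26 became -0.013 with the trend on gene span removed. PLXNB1, the receptor of SEMA4D, was at 33.0 and 34.2 early against 34.2 and 46.4 mid. PLXNB3 was at 1.53 and 1.17 early against 2.14 and 2.96 mid. The mid female value of PLXNB1 was thus nearly equal to its early male value. PLXNC1, the receptor of SEMA7A, and PLXNA4 were under 1 throughout. The gene described as plexin-B2, outside the set, was at 45.7 and 43.2 early against 49.3 and 71.7 mid.

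The neuropilins overlapped between the phases. NRP1 was at 7.10 and 2.74 early against 7.92 and 5.15 mid, and NRP2 at 6.91 and 12.9 early against 10.3 and 13.4 mid. NRP1 was higher in both female than in both male libraries and NRP2 was higher in both male libraries. Their log2 fold changes, 0.43 and 0.29, were close to their standard errors of 0.40 and 0.30.

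Netrin receptors held the largest difference that did not pass. UNC5B (GeneID 102184034), a receptor for netrin-1 that is also known in blood vessels, was at 10.7 and 4.90 early against 72.7 and 28.3 mid. Both mid libraries exceeded both early ones, and the female library was the higher one in each phase. The ratio of the phase means was 6.48, and the log2 fold change was 2.48 (SE 0.52, 95% interval 1.19 to 3.78, limma adjusted p = 0.0783). Without the mid female library it was 1.82 (adjusted p = 0.0427), and without the mid male library 3.15 (adjusted p = 0.0183). Without an early library it was 2.98 (female left out, adjusted p = 0.103) or 1.99 (male left out, adjusted p = 0.379). Endothelial marker sums were 4.31 and 4.55 early and 11.8 and 11.4 mid. Most of these sums was EGFL7 (2.86 and 3.72 early, 7.10 and 5.16 mid) and ERG (0.884 and 0.333 early, 4.19 and 5.24 mid). CDH5 was at 0. Among markers under 1 in all libraries, PECAM1 was lower in both mid libraries, and KDR, TEK and VWF were higher in both. Fibroblast marker sums, like UNC5B, were higher in the mid female than in the mid male library. The part of endothelial cells and fibroblasts in the UNC5B values was not tested. UNC5CL, whose product resembles the intracellular end of these receptors, was at 6.68 and 7.01 early against 5.20 and 6.31 mid (log2 fold change -0.22, adjusted p = 0.421). UNC50, which shares only the start of its symbol, was at 51.8 and 50.8 early against 47.7 and 39.8 mid (-0.23, adjusted p = 0.376). Neither passed, and after rescaling to a common total their log2 fold changes were 0.076 and 0.10. UNC5A and UNC5D were under 1 in all libraries, and UNC5C reached 1 only in the mid female library, at 1.06.

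Among the netrins, netrin-4, a laminin-related protein of basement membranes, was the most abundant. NTN4 was at 16.1 and 17.0 early against 16.2 and 21.3 mid, with overlapping phases and a 95% interval of -0.28 to 0.60. NTN1, the classical ligand of UNC5B, was far lower, at 0.576 and 1.38 early against 1.06 and 3.46 mid. It was higher in the male libraries, whereas UNC5B was higher in the female library of each phase. NTN3 was at 0.592 and 0.399 early against 1.31 and 1.34 mid. Only its mid values met the filter, which fixed its direction. NTN5 was under 1 in all libraries.

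Slits and ROBO receptors had low values. ROBO3, an unusual ROBO receptor that binds Slits weakly in mammals, was the most abundant, at 0.566 and 1.34 early against 1.66 and 3.72 mid (log2 fold change 0.89, SE 0.36, limma adjusted p = 0.183). SLIT2 was at 0.669 and 0.527 early against 0.954 and 0.919 mid. SLIT3 was at 0.492 and 0.162 early against 1.69 and 0.643 mid, and SLIT1 was at or below 0.234 in every library. None of the 3 Slits met the filter. ROBO1 and ROBO2 reached 1 only in the mid female library, at 1.04 and 1.08. ROBO4, the endothelial ROBO and the direct neighbour of ROBO3 in the ARS1.2 assembly, was at or below 0.0484.

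**Figure D4:**
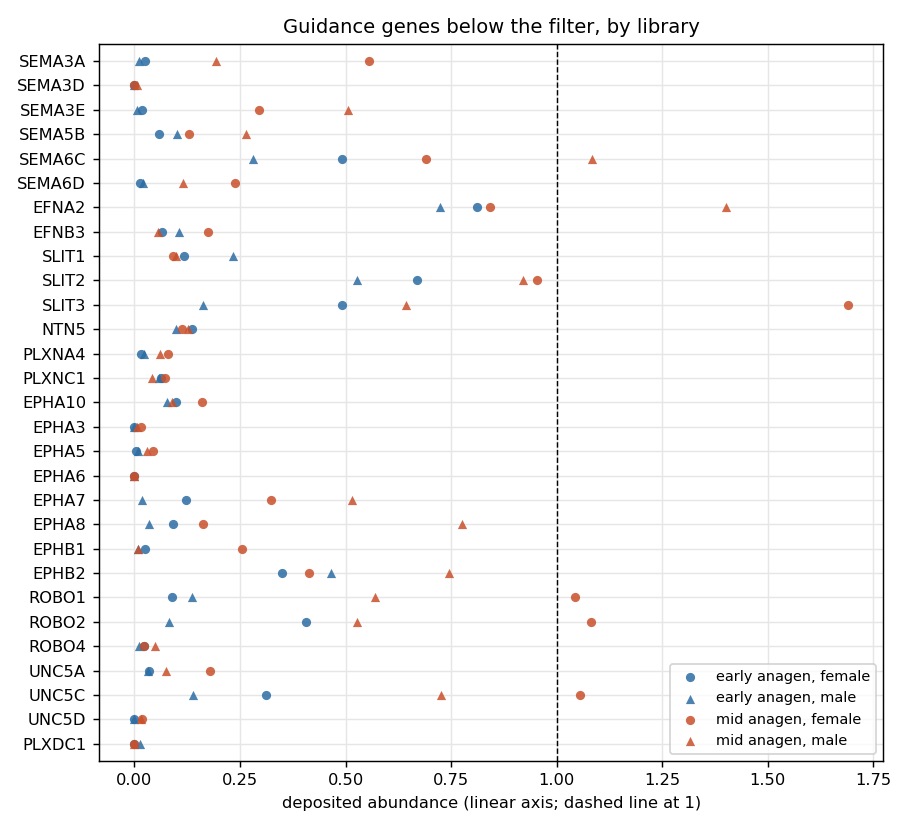
Deposited abundance of the 29 genes that did not meet the filter, on a linear axis with a dashed line at 1. Blue marks early and orange mid anagen, circles female and triangles male. SLIT3, EFNA2, ROBO1, ROBO2, UNC5C and SEMA6C reach 1 in a single library each, always a mid anagen one.

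The 29 untested members were mostly higher at mid anagen at very low values. Both mid libraries lay above both early libraries for 19 of 29, below them for 1 (SLIT1), and the phases overlapped for 9. Over all 7840 untested genes these counts were 1276, 638 and 5926. The last count holds the 3004 genes at 0 in every library. Without any filter, 38 of 70 members above 0 in some library had higher mid values (54.3%), against 30.0% of the 17322 genes above 0, and 7 of 70 had lower ones (against 25.9%). SEMA3A, a repellent secreted semaphorin, was at 0.0254 and 0.0116 early against 0.555 and 0.194 mid. SEMA3E was at 0.0183 and 0.00559 early against 0.296 and 0.505 mid, and SEMA6D at 0.0140 and 0.0193 early against 0.237 and 0.116 mid. These 3 were chosen after their values were seen. SEMA3A, SEMA6D, SLIT3, ROBO1, ROBO2 and UNC5C were higher in the mid female than in the mid male library. The fibroblast marker sum also had this order, while SEMA3E, EPHA7, EPHA8 and SEMA6C had the opposite one. Both lists are partial, and among the other untested members SLIT2 had the first order and EFNA2 the second. The part of fibroblasts in these values was not tested. Without known read numbers, no fold is given for them.

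Sex could be set against phase because each phase had 1 library of each. Among the tested members both female libraries lay above both male libraries for 8 of 42, namely EPHA1, SEMA3C, SEMA4A, SEMA4C, SEMA5A, EFNA3, EFNA4 and NRP1, and below them for 6 of 42, namely EFNA5, SEMA4G, SEMA6A, NTN1, NTN4 and NRP2. Over all tested genes the shares were 11.9% and 12.3%. SEMA6A, a membrane semaphorin chosen with its values in view, was at 0.272 early and 0.370 mid in the females against 1.40 early and 2.25 mid in the males. These patterns rest on 1 library per sex and phase and were not tested.

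**Figure D5:**
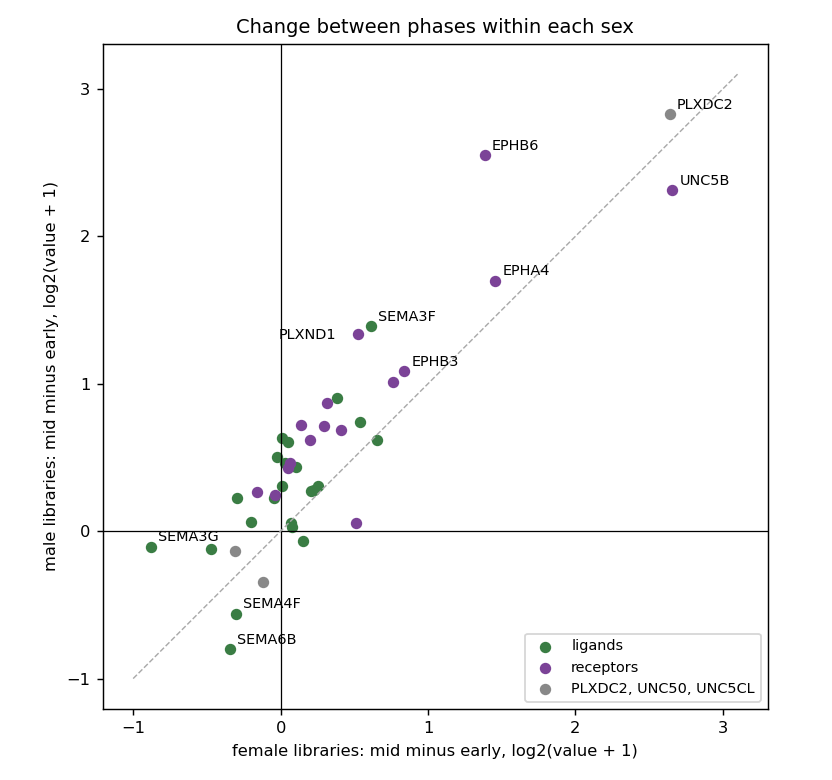
Change from early to mid anagen on the log2(value + 1) scale in the female libraries (horizontal) and the male libraries (vertical) for the 42 tested genes. Points above the dashed diagonal had the higher difference in the males. PLXDC2, UNC5B, EPHB6 and EPHA4 lie farthest from the origin, and the median of the members was 0.12 in the females and 0.45 in the males.

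Phase differences of the members were unequal between the sexes. The median log2 difference over the 42 tested members was 0.45 in the males and 0.12 in the females, while over all tested genes it was 0.01 and 0.02. EPHB6 differed by 2.55 in the males and 1.39 in the females, and PLXND1 by 1.34 and 0.52. NRP2 and UNC5B had the larger difference in the females. An interaction of phase and sex could not be fitted with any residual degrees of freedom left.

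Partners and effectors of guidance receptors, a list of 81 symbols that are no members, had values of the same kind. Of these 77 were found and 65 tested, and limma called 0 of 65. An unadjusted p under 0.05 was found for 17 of 65 (26.2%, against 27.9% of all tested genes), 16 of them higher (24.6%, against 13.2%). For FYN and FES only the mid libraries met the filter, which fixed their direction. Among the other 63, both mid libraries lay above both early ones for 35 (55.6%, against 30.4% of the tested genes whose direction the filter did not fix) and below them for 7 (11.1%, against 31.0%). The kinase FYN was at 0.355 and 0.131 early against 3.74 and 2.07 mid. DPYSL2, a collapsin response mediator that acts downstream of SEMA3A, was at 3.84 and 2.04 early against 4.80 and 11.6 mid (log2 fold change 1.16, adjusted p = 0.158). Without the mid female library it was 1.71 (adjusted p = 0.0306), and without the mid male library 0.60. CHN2, a chimaerin that inactivates Rac, was at 8.12 and 5.35 early against 13.6 and 14.7 mid (0.99, adjusted p = 0.0808, and 1.30 with adjusted p = 0.0490 after rescaling to a common total). The lowest log2 fold changes were those of PAK2, -0.45, CFL1, which encodes the actin-severing cofilin, -0.44, and RRAS, a small GTPase that plexins inactivate, -0.40. After rescaling to a common total these 3 values were -0.11, -0.10 and -0.066. NEO1, the netrin receptor neogenin, which was chosen after its values were known, was at 6.49 and 4.54 early against 12.7 and 10.3 mid (adjusted p = 0.0829), and DCC was not found by its symbol.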

How the data were processed

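RNA-seq libraries were made from total RNA of 4 samples. Per the submitters' processing notes, kallisto 0.46.1 and sleuth 0.30.0 were used. Genome build, annotation and gene-level summing were not given in the sources used here. The values the authors deposited are a signal, an abundance per gene and not counts, so limma was used as planned for such values. Depth is unknown, and no counting interval can be given.

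The fit used limma 3.58.1 under R 4.3.3 on log2(value + 1), with an intensity trend and phase as the only term. Fold changes are on that scale and understate changes of low genes. Genes reaching 1 in 2 or more libraries were tested, at a Benjamini-Hochberg adjusted p of 0.05. The code of the fit was run on simulated data in which the spreads were shuffled among genes. That run does not measure how often changes of the real genes are found. Gene order was taken from the RefSeq table of the ARS1.2 assembly, in which all 71 members were found by identifier.

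The members, classes, partner list, marker lists and the rule for named genes were chosen with earlier results of these data known. The rule took called members, up to 12 members per direction with the largest change, a mean of 2 or more and 1 direction in both sexes, the most abundant member of each class, members with opposite changes over 0.5 in both sexes, of which there were none, and 3 partners per direction. Other members are given for completeness. Alternatives were pseudocounts of 0.1 and 5, no filter, a filter of 5, a replicate block, a common total, no intensity trend and leaving out each library. Removal of the trend on gene span was added after the data were seen.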

Additional observations from a re-analysis of the deposited data

Results flagged for a closer look

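The direction of change differed between the sexes for 7 tested members with a mean value of at least 2. Each sex has 1 library per phase, so these differences were not tested. On the log2(value + 1) scale the change from early to mid anagen was -0.16 in the females and 0.27 in the males for EPHA1, a gap of 0.43. EPHA2 changed by -0.04 and 0.25 (gap 0.29), EFNB2 by -0.20 and 0.06 (gap 0.26) and SEMA4A by -0.04 and 0.22 (gap 0.27). The widest gaps were those of SEMA4C, -0.02 and 0.50 (gap 0.53), and SEMA7A, -0.30 and 0.23 (gap 0.53). SEMA3C went the other way, with 0.15 in the females and -0.07 in the males (gap -0.22).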

How the results depend on the processing

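As tested, 38 genes were called over the whole table and 2 guidance genes. With a pseudocount of 0.1 the counts were 18 and 1, with no filter 0 and 0 (3843 genes and 21 members at an unadjusted p under 0.05), and after rescaling to a common total 651 (568 higher) and 6. With no intensity trend and with the span trend removed, 1 guidance gene was called. Leaving out 1 library gave 0 to 733 genes and 0 to 4 guidance genes, with 0 when either early library was left out (14 and 7 members at an unadjusted p under 0.05). With a lone library in a phase, its spread is assumed to equal that of the other phase. Replicate numbers are shared by the phases and equal the sex, and nothing in the labels pairs the animals. Deviations of same-numbered libraries correlated at 0.29 across 12486 genes, which are not independent replicates. With the replicate block 1782 genes (917 higher) and 8 guidance genes were called, EFNA1, EPHA4, EPHB3, EPHB6, PLXDC2, ROBO3, SEMA3F and UNC5B, all higher (adjusted p = 0.0153 for EPHB6 and 0.00271 for UNC5B).

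None of the sign changes below concerns a called gene. After rescaling, the log2 fold change was 0.26 for EFNB2, 0.020 for SEMA4D, 0.29 for SEMA7A, 0.10 for UNC50 and 0.076 for UNC5CL. With the span trend removed it was -0.22 for SEMA3C, -0.24 for EFNA5, -0.34 for SEMA5A, -0.043 for NTN4 and -0.013 for PLXNA2. Leaving out 1 library, the range was -0.055 to 0.70 for EFNA3, -0.046 to 0.70 for EFNA4, -0.070 to 0.20 for EFNA5, -0.17 to 0.033 for EFNB2, -0.21 to 0.32 for EPHA1, -0.0094 to 0.22 for EPHA2, -0.13 to 0.99 for NRP1 and -0.12 to 0.69 for NRP2. It was -0.027 to 0.34 for NTN4, -0.14 to 0.22 for SEMA3C, -0.088 to 0.27 for SEMA4A, -0.064 to 0.55 for SEMA4C, -0.065 to 0.17 for SEMA5A, -0.35 to 0.90 for SEMA6A, -0.27 to 0.20 for SEMA7A and -0.031 to 0.22 for the median of the ligands. The cause was not tested.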
